A study of Mus musculus with 6 samples.

Results

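The phagocyte NADPH oxidase is described here through 6 genes of the deposited expression table, which has 38924 rows: Cybb, Cyba, Ncf1, Ncf4, Rac1 and Rac2. They were taken by name, as subunits of the enzyme and the Rac genes that switch it on, and each had 1 row. All 6 libraries came from bone marrow cells of C57BL/6 mice transplanted with transduced mouse marrow. The cells had been sorted as GFP positive, negative for lineage markers and positive for c-kit, the stem cell factor receptor of immature blood cells. The mock group carried GFP alone and was taken 4 weeks after transplantation (2 libraries). The preleukemia group carried Evi1 and GFP at the same 4 weeks (2 libraries), and the leukemia group carried Evi1 and GFP at 6 months (2 libraries). Evi1 is a zinc finger transcription factor encoded by Mecom, and here it was delivered by transduction, so only cells that had taken up a vector were sorted. The age of the mice is not in the labels, and mice with GFP alone were not sampled at 6 months, so the effects of time and of leukemia cannot be told apart. Whether the 2 libraries of each group stem from different animals is not stated either, and the p-values below then cover only the variation between the sequenced libraries, which may be technical.

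The phagocyte oxidase moves electrons from NADPH across a membrane to oxygen and makes superoxide, which neutrophils, monocytes and eosinophils use against microbes. Its catalytic core is a membrane heterodimer of gp91phox, encoded by Cybb, and p22phox, encoded by Cyba. In resting cells cytosolic subunits, among them the organiser p47phox (Ncf1) and p40phox (Ncf4), stay apart from the core. After stimulation they join the core together with the GTP-bound form of a Rac protein, in neutrophils mainly Rac2. Loss of the core or cytosolic subunits causes chronic granulomatous disease, and in myeloid development the genes for the core are switched on as progenitors mature.

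Values are RPKM, read numbers scaled to the length of the gene and the total of the library, so levels can be set against each other between genes. The totals implied by the steps between low values were 16922992 to 21641740 reads. For a gene with 1 kb of exons, 3 reads correspond to between 0.139 and 0.177 RPKM, far below every value of the 6 genes. Mecom was low in mock, at 0.774 and 0.805 RPKM, and lay at 78.0 and 80.1 RPKM in preleukemia against 61.7 and 71.5 RPKM in leukemia, so its level followed the labels. Kit, which encodes the c-kit receptor of the sort gate, lay between 46.8 and 69.2 RPKM in all 6 libraries. The mock libraries differed more from each other than the other pairs did, with a median absolute difference of 0.22 on the log2(RPKM + 1) scale against 0.11 in preleukemia and 0.11 in leukemia.

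Cybb, which encodes the catalytic subunit gp91phox, was higher in preleukemia than in mock or leukemia. It lies on chromosome X at 9435252 to 9487771 of GRCm38, minus strand (protein coding, ENSMUSG00000015340.10). Its level was 5.32 and 11.2 RPKM in the mock libraries, 33.4 and 60.7 in preleukemia, and 4.02 and 15.6 in leukemia. Both preleukemia libraries thus stood above all 4 others, while mock and leukemia overlapped. The group means were 8.28 ± 4.19, 47.0 ± 19.3 and 9.82 ± 8.20 RPKM (SD, n = 2 each), a 5.68-fold ratio of preleukemia to mock. In the model across all genes Cybb rose by 2.39 on the log2(RPKM + 1) scale in preleukemia against mock (SE 0.59, limma adjusted p = 0.0352). It fell by 2.33 in leukemia against preleukemia (SE 0.59, limma adjusted p = 0.0391). Leukemia and mock differed by 0.05, with a 95% confidence interval from -1.36 to 1.47, so a change of more than 2-fold either way was within the error.

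Cybb had the widest spread between paired libraries among the 6 genes, and its calls depended on single libraries. The higher library held 2.11 times the lower one in mock, 1.82 times in preleukemia and 3.88 times in leukemia. The rise in preleukemia was lost on leaving out mock library 1 (1.91, limma adjusted p = 0.0857), preleukemia library 1 (2.81, adjusted p = 0.0863) or preleukemia library 2 (1.97, adjusted p = 0.205). The fall in leukemia against preleukemia was lost on leaving out preleukemia library 1 (limma adjusted p = 0.0930), preleukemia library 2 (adjusted p = 0.221) or leukemia library 1 (-1.47, adjusted p = 0.150). The limma adjusted p of the fall became 0.0532 with TMM-like scaling and 0.0534 with quantile normalization.

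Cyba, which encodes p22phox, the partner that stabilises gp91phox, had the same order of groups with a narrower spread. The gene lies on chromosome 8 at 122424776 to 122432930, minus strand (protein coding, ENSMUSG00000006519.11). Its level was 19.1 and 24.7 RPKM in mock, 59.2 and 82.1 RPKM in preleukemia, and 24.7 and 27.1 in leukemia. The preleukemia libraries stood clear of all others, and the lower leukemia library was level with the higher mock library. Cyba rose by 1.64 in preleukemia against mock (SE 0.18, limma adjusted p = 0.00284), from 21.9 ± 3.99 to 70.7 ± 16.2 RPKM (SD, n = 2 each), or 3.22-fold. It fell by 1.40 in leukemia against preleukemia (SE 0.18, limma adjusted p = 0.00507). The difference between leukemia and mock was 0.24 (95% confidence interval -0.20 to 0.68, limma adjusted p = 0.372). Both calls of Cyba passed in all 18 alternative analyses, the 6 that leave out 1 library included.

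Ncf1, which encodes p47phox, the organiser that bridges the cytosolic proteins to p22phox, was the member that stayed above mock in leukemia. It lies on chromosome 5 at 134220053 to 134229625, minus strand (protein coding, ENSMUSG00000015950.13). Its level was 26.0 and 30.4 RPKM in mock, 101.2 and 141 RPKM in preleukemia, and 50.8 and 69.6 in leukemia. No 2 groups overlapped, and leukemia lay between the others. Ncf1 rose by 2.05 in preleukemia against mock (SE 0.21, limma adjusted p = 0.00191), a 4.29-fold ratio of mean RPKM, and this passed in all 18 alternatives. It rose by 1.05 in leukemia against mock (SE 0.21, limma adjusted p = 0.0128), or 2.13-fold, and fell by 0.99 in leukemia against preleukemia (limma adjusted p = 0.0204). The call in leukemia was lost without leukemia library 2 (0.83, limma adjusted p = 0.0756). The fall from preleukemia was lost without preleukemia library 2 (limma adjusted p = 0.135), without leukemia library 1 (adjusted p = 0.125) or with no filter on low values (adjusted p = 0.0718). Exons of Gtf2ird2 on the opposite strand cover 408 of the 3663 exon bases of Ncf1, and the libraries were made with a kit that keeps no strand information. The level of Gtf2ird2 itself was 4.04 and 5.91 RPKM in the mock libraries, 6.96 and 8.91 RPKM in the preleukemia libraries, and 5.47 and 6.36 RPKM in the leukemia libraries, and its part in the Ncf1 values was not tested.

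Ncf4 encodes p40phox, a cytosolic subunit that binds a phosphoinositide of phagosome membranes. The gene lies on chromosome 15 at 78244801 to 78262580, plus strand (protein coding, ENSMUSG00000071715.12). Its level was 16.3 and 16.5 RPKM in mock, 22.3 and 34.0 RPKM in preleukemia, and 16.9 and 21.4 in leukemia. The preleukemia libraries lay above all others by a small margin, and the preleukemia pair differed 1.52-fold. The log2 fold change was 0.72 in preleukemia against mock (SE 0.20, limma adjusted p = 0.0508), just short of the threshold. It passed without preleukemia library 1 (1.01, limma adjusted p = 0.0358), with robust spread (adjusted p = 0.0456), with a filter of 5 RPKM (adjusted p = 0.0493) and with the replicate number as a block (adjusted p = 0.0262). The difference was 0.21 in leukemia against mock (limma adjusted p = 0.481) and -0.51 in leukemia against preleukemia (adjusted p = 0.131).

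Rac2, the Rac GTPase of blood cells, was also higher in preleukemia, by less than the core subunits. It lies on chromosome 15 at 78559167 to 78572783, minus strand (protein coding, ENSMUSG00000033220.7). Its level was 77.9 and 68.6 RPKM in mock, 108 and 126 RPKM in preleukemia, and 68.7 and 79.7 in leukemia. Mock and leukemia overlapped, and both preleukemia libraries lay above them. Rac2 rose by 0.67 in preleukemia against mock (SE 0.13, limma adjusted p = 0.0155), 1.60-fold from 73.3 ± 6.63 to 117 ± 12.3 RPKM (SD, n = 2 each). It fell by 0.65 in leukemia against preleukemia (SE 0.13, limma adjusted p = 0.0172). The difference between leukemia and mock was 0.02, with a 95% confidence interval from -0.29 to 0.32. The rise was lost when preleukemia library 1 (limma adjusted p = 0.0531) or preleukemia library 2 (adjusted p = 0.130) was left out. The fall was lost on leaving out preleukemia library 1 (limma adjusted p = 0.0561), preleukemia library 2 (adjusted p = 0.139) or leukemia library 1 (adjusted p = 0.129), nor with no filter on low values (adjusted p = 0.0534).

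Rac1, the Rac GTPase of nearly all cell types, was the steadiest of the 6 genes. It lies on chromosome 5 at 143503634 to 143528036, minus strand (protein coding, ENSMUSG00000001847.14). Its level was 77.1 and 68.6 RPKM in mock, 83.2 and 85.5 RPKM in preleukemia, and 74.4 and 72.4 in leukemia. The preleukemia libraries were again the highest, but by 1.16-fold over mock in the means. The log2 fold changes were 0.21 in preleukemia against mock (95% confidence interval -0.02 to 0.44, limma adjusted p = 0.166), 0.01 in leukemia against mock (adjusted p = 0.926) and -0.20 in leukemia against preleukemia (adjusted p = 0.202). The first passed without mock library 1 (0.30, limma adjusted p = 0.0452). In GENCODE M21 exons of Daglb on the opposite strand cover 2309 of the 4496 exon bases of Rac1. For Daglb the mock libraries gave 6.98 and 5.05 RPKM, the preleukemia libraries 12.3 and 15.1 RPKM and the leukemia libraries 5.51 and 6.69 RPKM, so preleukemia was highest here too, and its part in the Rac1 values was not tested. Rac3, the third Rac gene, stayed between 0.663 and 1.64 RPKM and changed in no comparison (limma adjusted p from 0.305 to 0.622).

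**Figure D1:**
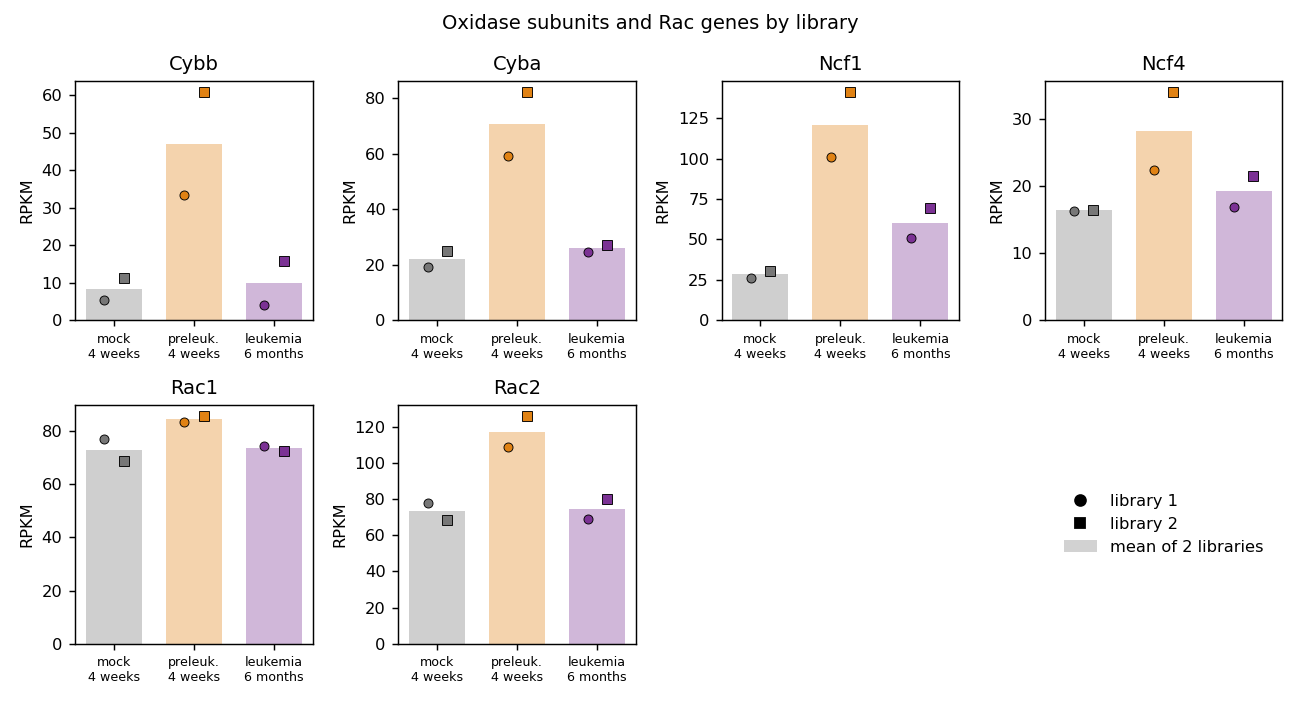
RPKM of the 6 genes in each library, on linear axes that start at 0; points are libraries and bars the mean of 2. The preleukemia libraries are the highest for each of the 6 genes, from 33.4 and 60.7 RPKM for Cybb against at most 15.6 elsewhere, to 83.2 and 85.5 for Rac1 against at most 77.1.

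Read together, 4 of the 6 genes rose in preleukemia against mock (Cybb, Cyba, Ncf1 and Rac2), none fell and 2 did not pass. Of the 10958 genes tested in that comparison 19.5% passed, 13.5% higher and 6.02% lower. Against mock, leukemia had 1 member higher (Ncf1), none lower and 5 not past the test, where 25.6% of all tested genes passed, 12.1% higher and 13.5% lower. Against preleukemia, leukemia had 4 members lower (Cybb, Cyba, Ncf1 and Rac2), none higher and 2 not past the test, where 18.3% of all tested genes passed, 13% lower and 5.27% higher. The median log2 fold change of the 6 was 1.18, 0.13 and -0.82 in the 3 comparisons, beside 0.05, -0.04 and -0.09 for all genes tested. All 6 genes passed the filter on low values. The comparisons share libraries: preleukemia enters the first and the last, so the rise against mock and the fall in leukemia are not separate evidence.

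The libraries of preleukemia and mock did not overlap for any of the 6 genes, all higher, where 37.2% of tested genes were higher and 25.5% lower without overlap. All 6 were lower without overlap in leukemia against preleukemia, where 46.0% of tested genes were lower and 24.7% higher. Between leukemia and mock 2 of 6 (Ncf1 and Ncf4) were higher without overlap and none lower, where 30.0% of tested genes were higher and 35.5% lower, so the members' share was near that background. By size of the change in preleukemia against mock, Cybb exceeded 99.3% of tested genes, Ncf1 99.0%, Cyba 98.4%, Ncf4 91.8%, Rac2 90.6% and Rac1 66.0%. The count of members that rose in preleukemia was 2 without preleukemia library 2 and 3 without preleukemia library 1. Of the 4 that fell in leukemia against preleukemia, 2 passed when preleukemia library 1 was left out, and 1 passed when preleukemia library 2 or leukemia library 1 was left out or when no filter on low values was used. The rise of 1 member in leukemia was lost without leukemia library 2. The share of all called genes that were higher moved with the scaling: in preleukemia against mock it was 69.2%, then 58.6% with TMM-like scaling and 52.9% with quantile normalization. For leukemia against preleukemia the same share was 28.8%, 42.0% and 50.8%, and quantile normalization moved the median of all tested genes there from -0.09 to 0.03. The direction of each called member was the same under both scalings.

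**Figure D2:**
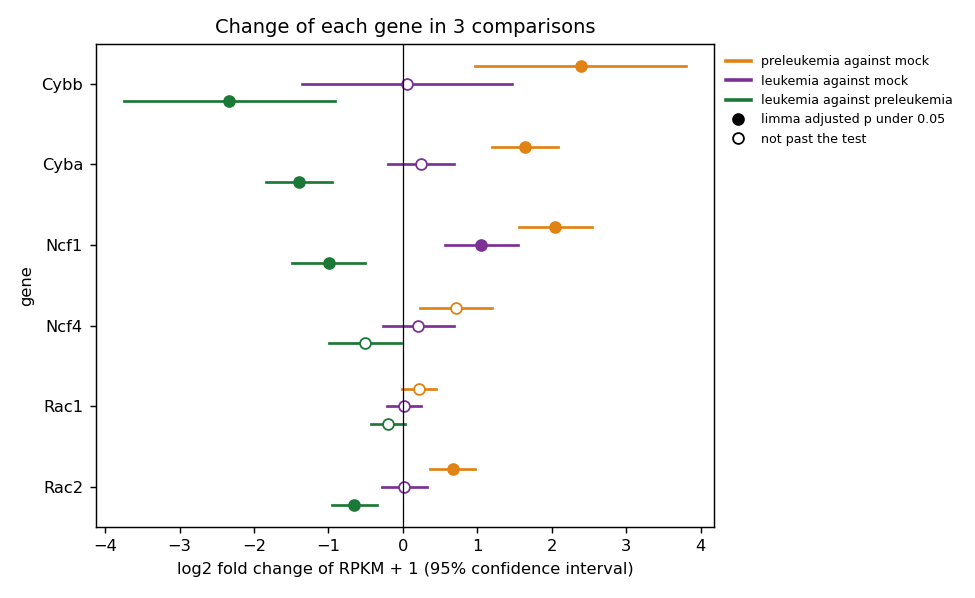
Log2 fold change of RPKM + 1 with its 95% confidence interval for each gene in the 3 comparisons; filled points passed the limma test at an adjusted p under 0.05. Cybb has the widest intervals (0.97 to 3.80 in preleukemia against mock), and Ncf1 is the 1 gene with a filled point in leukemia against mock.

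The order of levels also differed between groups. In mock, Rac1 and Rac2 were highest and did not differ beyond their spread, and Ncf1, Cyba, Ncf4 and Cybb followed in that order without overlap between neighbours. In preleukemia Ncf1 reached the level of Rac2, and their libraries overlapped. Rac2 lay above Rac1 and Cyba just below Rac1 there, Cybb overlapped Cyba, and Ncf4 was lowest though its higher library reached the lower Cybb library. In leukemia Rac1 and Rac2 overlapped again, and the higher Ncf1 library (69.6 RPKM) reached the lower Rac2 library (68.7 RPKM). Cyba, Ncf4 and Cybb followed in the order of mock. Cybb, the catalytic subunit, had the lowest RPKM of the 6 in mock and leukemia. Such an order between genes rests on the gene lengths behind the RPKM values and, for Rac1, on how reads in bases shared with Daglb exons were counted.

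Pairs of members were compared as a ratio of RPKM within each library, which needs no scaling between libraries and was given no test. Cybb and Cyba encode the core, Ncf1 and Ncf4 cytosolic subunits, and Rac1 and Rac2 the Rac GTPases. Cybb to Cyba was 0.279 and 0.455 in the mock libraries, 0.563 and 0.739 in the preleukemia libraries, and 0.163 and 0.576 in the leukemia libraries. Cybb thus stayed below Cyba in all 6 libraries, and the leukemia pair spanned the range of mock and beyond. Ncf1 to Ncf4 was 1.60 and 1.85 in the mock libraries, 4.53 and 4.15 in the preleukemia libraries, and 3.0 and 3.25 in the leukemia libraries, with no overlap between groups. The transcripts of these cytosolic subunits therefore did not keep 1 proportion across the groups. Rac2 to Rac1 was 1.01 and 1.00 in the mock libraries, 1.30 and 1.47 in the preleukemia libraries, and 0.923 and 1.10 in the leukemia libraries, so the listed RPKM of the 2 GTPases was near equal outside preleukemia. Exons of Daglb cover 2309 of the 4496 exon bases of Rac1. How reads there were counted is not known, so the true ratio may differ.

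**Figure D3:**
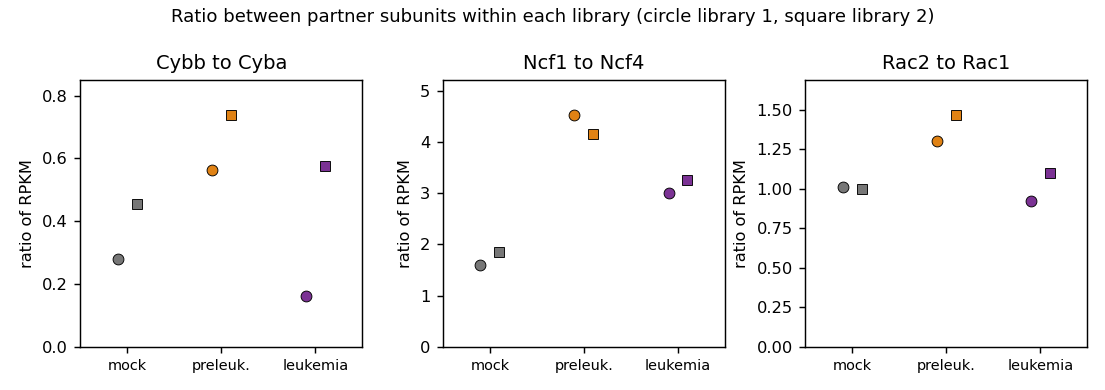
Ratio of RPKM between pairs of members in each library (circles library 1, squares library 2), on linear axes that start at 0. Ncf1 to Ncf4 separates the 3 groups (1.60 to 1.85, 4.15 to 4.53 and 3.0 to 3.25), while Cybb to Cyba spreads from 0.163 to 0.576 within leukemia.

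The promoters of Cybb, Cyba and Ncf1 are shown because these genes had the largest rises in preleukemia, and they are also the members with a window. They are the 250 bases before the RefSeq start on GRCm38.p6, 5′ to 3′ on the minus strand, and 3 of the 6 genes matched a window in that table (Ncf4, Rac1 and Rac2 did not). Capitals mark letters of a motif searched on both strands.
Cybb, chrX:9469325-9469574: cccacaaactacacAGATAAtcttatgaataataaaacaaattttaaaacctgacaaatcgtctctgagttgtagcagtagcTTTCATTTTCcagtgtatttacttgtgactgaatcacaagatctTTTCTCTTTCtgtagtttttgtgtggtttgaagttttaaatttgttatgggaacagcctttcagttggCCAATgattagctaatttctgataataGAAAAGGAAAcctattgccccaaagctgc
Cyba, chr8:122432941-122433190: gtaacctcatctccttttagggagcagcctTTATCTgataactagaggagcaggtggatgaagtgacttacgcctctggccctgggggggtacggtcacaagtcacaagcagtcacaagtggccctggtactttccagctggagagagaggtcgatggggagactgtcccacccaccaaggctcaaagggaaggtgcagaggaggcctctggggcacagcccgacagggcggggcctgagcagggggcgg
Ncf1, chr5:134229626-134229875: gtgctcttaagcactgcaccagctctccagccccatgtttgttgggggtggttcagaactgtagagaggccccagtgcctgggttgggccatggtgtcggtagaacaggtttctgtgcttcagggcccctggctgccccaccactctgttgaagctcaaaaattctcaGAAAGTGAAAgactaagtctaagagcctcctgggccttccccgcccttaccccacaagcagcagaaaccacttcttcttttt
The windows differ in base composition, with 34.0% G and C in Cybb, 60.0% in Cyba and 54.4% in Ncf1, beside a median of 52.4% over 32851 windows.

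Of the motifs searched, the paired repeat bound by interferon regulatory factors (GAAA, any 2 bases, GAAA) was in the Cybb and Ncf1 windows. Cybb held 3 matches, whose first bases lie 168, 124 and 29 bases before the start, and Ncf1 held 1, which begins 82 bases before it. The motif was in 2.98% of all windows. AGATAA, the letters bound by GATA factors, was in the Cybb and Cyba windows at 236 and 220 bases before the start, and in 9.99% of all windows. ATTGG, the CCAAT box, was in the Cybb window from 56 to 52 bases before the start, and in 33.9% of all windows. No match overlapped another. The letters GAGGAA (PU.1-like), TTNNGNAA (C/EBP-like) and TGAGTCA (AP-1-like) were in none of the 3 windows, and in 23.3%, 36.8% and 4.46% of all windows.

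Neutrophil markers moved with the oxidase genes in the comparisons that involve preleukemia. In these bulk samples fewer cells of a type and less RNA per cell cannot be told apart. Of 15 neutrophil markers, 10 rose and none fell in preleukemia against mock, and 10 fell and none rose in leukemia against preleukemia (limma). Of these, 6 of the 10 rises and 5 of the 10 falls passed in each of the 6 fits that leave out 1 library. Ngp, Mmp9, Ctsg and Elane were not called higher without preleukemia library 2, and Ngp, Lcn2, Mmp9, Ltf and Mpo were not called lower without leukemia library 1. With TMM-like or quantile scaling 1 marker rose and 9 fell in leukemia against preleukemia. In leukemia against mock 4 of the 15 rose and 3 fell, where 12.1% of all tested genes were higher and 13.5% lower. The summed level of the 15 markers was 2545 to 3435 RPKM in mock, 8337 to 13097 in preleukemia and 2061 to 2325 in leukemia. None was at 0 in both libraries of a group. The c-kit positive progenitors themselves express part of the list: Mpo, the myeloperoxidase of the primary granules, lay at 1863 and 1325 RPKM in mock. Markers of late granule stages varied within preleukemia: Ltf (lactoferrin) was 17.4 and 166 RPKM there, and Camp (cathelicidin) 3.44 and 67.3. S100a8, which encodes a subunit of calprotectin, was 2179 and 4117 RPKM there. Preleukemia library 2, the higher in these, was also the higher of its pair in all 6 genes. In mock, S100a8 was at 6.25 and 5.68 RPKM while Cybb was at 5.32 and 11.2. In leukemia S100a8 was at 227 and 373 RPKM, above mock, while Cybb was at 4.02 and 15.6.

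Of 10 monocyte and macrophage markers measured, 9 were tested: 3 rose and 2 fell in preleukemia against mock, and 1 rose and 3 fell in leukemia against preleukemia. Their sum was 539 to 753 RPKM in mock, 2019 to 2690 in preleukemia and 792 to 902 in leukemia, and Lyz2 (lysozyme) alone made 1356 and 2024 of it in preleukemia. Cd68 (12.6 and 16.6 RPKM in mock, 23.1 and 23.3 in preleukemia) and F13a1 (95.3 and 150, then 264 and 248) also rose. Csf1r, the receptor that defines the monocyte lineage, was 1 of the 2 that fell, with 26.4 and 38.3 RPKM in mock and 16.9 and 15.2 in preleukemia. Its call was lost without preleukemia library 1 (-1.02) or 2 (-0.87), as were those of Cd68 and F13a1. Of 7 eosinophil markers measured, 3 were tested, and 1 rose in preleukemia against mock while none passed in the other comparisons. Their sum was 28.5 to 44.0 RPKM in mock and 85.1 to 85.3 in preleukemia, but 3.62 in leukemia library 1 and 171 in leukemia library 2, with Ear1 and Ear2 at 0 in both. Leukemia library 2 was also the higher of its pair in Cybb (15.6 against 4.02 RPKM), and Epx, the eosinophil peroxidase, lay there at 19.9 against 1.60 RPKM. The split was not limited to eosinophil markers. Among neutrophil markers, Ngp lay at 25.8 RPKM in leukemia library 2 against 2.46 in library 1, and Ltf at 1.43 against 0.208. Mpo (851 against 967 RPKM) and Cxcr2 (10.8 against 11.5) went the other way. Markers of other lineages moved too. Over all tested genes 13.5% were higher and 6.02% lower in preleukemia against mock, and 12.1% and 13.5% in leukemia against mock. Of 6 mast cell and basophil markers tested, none rose and 4 fell in preleukemia against mock (median -1.10), and 5 fell in leukemia against mock. Of 4 dendritic markers 2 fell and none rose in preleukemia (median -1.50), and of 5 B cell markers 1 rose and 4 fell in preleukemia and in leukemia against mock. Of 9 erythroid markers 3 rose and none fell in preleukemia against mock, though the median of the 9 was -0.42. In leukemia against mock 1 of them rose and 7 fell (median -2.11). Of 6 megakaryocyte markers 2 rose in preleukemia and 3 fell in leukemia, both against mock. The part of any of these cell types in the oxidase values was not tested.

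**Figure D4:**
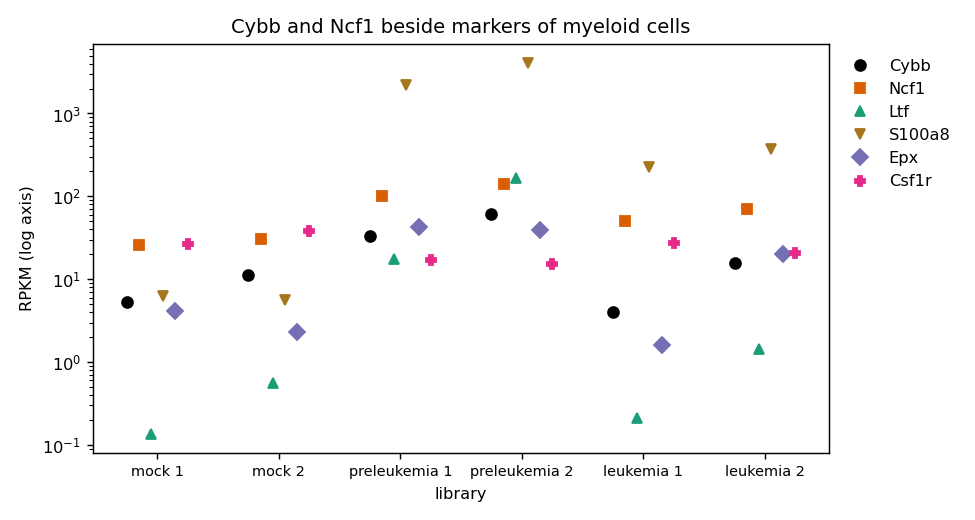
RPKM on a log axis of Cybb and Ncf1 in each library beside Ltf and S100a8 (neutrophils), Epx (eosinophils) and Csf1r (monocytes). Cybb, Ncf1, Ltf and S100a8 are highest in the preleukemia libraries, Epx is 1.60 and 19.9 RPKM in the leukemia pair, and Csf1r is lowest in preleukemia. Of 9 monocyte and macrophage markers tested, 3 rose and 2 fell in preleukemia against mock, Csf1r among the 2.

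Among other NADPH oxidases and their organisers, 2 of 10 genes reached the filter, Noxo1 and Poldip2, and neither passed in any comparison (limma adjusted p from 0.217 to 0.834). Nox3 and Nox4 were listed at 0 in all libraries, and Nox1, the colon oxidase, stayed at or under 0.269 RPKM. Of the catalytic subunits of the family listed, Cybb was thus the 1 that reached the filter.

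Among 4 partners that help the oxidase mature or run, Hvcn1 rose in preleukemia and leukemia. Hvcn1 encodes the proton channel that balances the charge moved by the oxidase. Its level was 12.2 and 11.5 RPKM in mock, 31.3 and 37.0 RPKM in preleukemia, and 29.8 and 47.0 in leukemia. Both Evi1 groups lay above mock and overlapped each other. The log2 fold changes were 1.45 against mock in preleukemia (limma adjusted p = 0.00596; 0.0596 without preleukemia library 2) and 1.58 in leukemia (adjusted p = 0.00319). The gene BC017643, the mouse Cybc1 that is needed for stable gp91phox protein, lay at 13.6 and 14.5 RPKM in mock and 16.9 and 21.3 in preleukemia (0.41, limma adjusted p = 0.0954). Prdx6 fell in leukemia against mock (-0.36, limma adjusted p = 0.0318) and against preleukemia (-0.40, adjusted p = 0.0293), and neither call held when any preleukemia or leukemia library was left out. Clcn3, a chloride exchanger, did not pass in any comparison.

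Kinases and lipid enzymes that activate the oxidase moved in part with it. Of 23 tested 8 rose, 1 fell and 14 did not pass against mock, with a median of 0.32 beside 0.05 for all genes, and 4 of the 8 (Prkcb, Pak1, Pik3r5 and Plcb2) passed in each of the 6 fits that leave out 1 library. Prkcb, a protein kinase C that phosphorylates p47phox, was 1.44 and 1.42 RPKM in mock, 7.76 and 11.8 RPKM in preleukemia, and 3.46 and 6.26 in leukemia. It showed no overlap between groups and rose by 2.13 in preleukemia (limma adjusted p = 0.00407). Pak1, a kinase that Rac activates, was 17.6 and 15.7 RPKM in mock, 47.6 and 49.8 RPKM in preleukemia, and 42.2 and 39.7 in leukemia. It rose by 1.49 in preleukemia (limma adjusted p = 0.000617) and by 1.25 in leukemia (adjusted p = 0.000644). Pik3r5, the regulatory subunit of the phosphoinositide 3-kinase downstream of chemoattractant receptors, rose by 1.54 (limma adjusted p = 0.00141), and Plcb2, a phospholipase C of the same pathway, by 1.52 (adjusted p = 0.00194), both in preleukemia. Against mock, 6 rose and 2 fell in leukemia, with a median of 0.15 beside -0.04, where 12.1% of all tested genes were higher and 13.5% lower. In preleukemia against mock the same shares were 13.5% and 6.02%. Against preleukemia 4 of 23 fell in leukemia and none rose, with a median of -0.25 beside -0.09, where 13% of all tested genes were lower, and none of the 4 passed in all 6 of those fits.

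Of 25 Rac regulators tested 2 rose and 2 fell in preleukemia against mock, a share below the 19.5% of all tested genes that passed, with a median of 0.21, and none of the 4 passed in each of the 6 fits that leave out 1 library. Dock2, a Rac exchange factor of blood cells, was 16.9 and 16.3 RPKM in mock and 24.1 and 25.7 in preleukemia (0.56, limma adjusted p = 0.00995; 0.110 without preleukemia library 2). Arhgdib, a blood cell inhibitor that holds Rac in the cytosol, was 170.1 and 141 RPKM in mock and 219 and 262 in preleukemia (0.62, limma adjusted p = 0.0246; 0.171 without preleukemia library 2). Bcr, which has a GTPase-activating domain for Rac, fell from 14.2 and 17.2 to 9.10 and 9.21 RPKM (-0.71, limma adjusted p = 0.0111; 0.0921 without preleukemia library 2). Leukemia had 4 regulators higher and 5 lower than mock, where 12.1% of all tested genes were higher and 13.5% lower, and 2 higher and 4 lower than preleukemia, where 5.27% were higher and 13% lower. None of the higher calls passed in each of the 6 fits that leave out 1 library, and 1 of the lower calls did in each comparison. Tiam2, Swap70, Elmo1 and Dock2, the 4 higher than mock, were each lost without leukemia library 1 and without leukemia library 2.

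Receptors that trigger the oxidase were divided as well. Of 13 tested 4 rose and 2 fell in preleukemia against mock, with a median of -0.39 beside 0.05 for all genes tested. Over all tested genes 13.5% were higher and 6.02% lower in that comparison. Itgam, the alpha chain of the complement receptor CR3, was 4.66 and 4.77 RPKM in mock, 37.1 and 53.2 RPKM in preleukemia, and 13.7 and 21.7 in leukemia. It rose by 2.99 in preleukemia (limma adjusted p = 0.000956) and by 1.68 in leukemia (adjusted p = 0.00414). Tlr4, the endotoxin receptor, rose by 1.77 in preleukemia (limma adjusted p = 0.00258), and Csf2rb, the shared beta chain of the GM-CSF receptor, fell by 1.52 (adjusted p = 0.00417). Leukemia had 2 of the receptors higher and 5 lower than mock, with a median of -0.47 beside -0.04 for all genes tested. Of all tested genes 5.27% were higher and 13% lower in leukemia against preleukemia, and 12.1% and 13.5% in leukemia against mock. Fcgr3, an activating receptor for antibody, fell there from 23.6 and 18.0 to 1.21 and 5.80 RPKM (-2.48, limma adjusted p = 0.0113), and Fcer1g, the signalling chain it needs, fell by 1.94 (adjusted p = 0.00488). Against preleukemia 3 fell and none rose, 1 of them (Tlr4) in each fit that leaves out 1 library.

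Enzymes that make NADPH, the substrate of the oxidase, rose in preleukemia in 4 of 4 tested, with a median of 1.16, where 13.5% of all tested genes were higher. Pgd of the pentose phosphate pathway passed in all 6 fits that leave out 1 library (1.07, limma adjusted p = 0.00513), whereas G6pdx (adjusted p = 0.0895), H6pd (adjusted p = 0.0544) and Idh1 (adjusted p = 0.0509) did not pass without preleukemia library 2. Leukemia had 2 of 4 higher than mock and 3 of 4 lower than preleukemia, and none of these calls passed in all 6 fits. Of 17 enzymes that use or remove the products of the oxidase 3 rose and 2 fell in preleukemia, 1 rose and 6 fell in leukemia against mock, and 5 fell in leukemia against preleukemia. Over all tested genes 13.5% and 13% fell in the latter comparisons, 12.1% rose in leukemia against mock, and 6.02% fell in preleukemia against mock. Of the falls, 1 of the 6 and none of the 5 passed in each of the 6 fits that leave out 1 library, and all 5 (Prdx5, Txn1, Gclm, Mpo and Nqo1) were lost without preleukemia library 2. Sod1, which turns superoxide into hydrogen peroxide in the cytosol, was 183.9 and 184.0 RPKM in mock, 124 and 96.8 RPKM in preleukemia, and 92.0 and 90.4 in leukemia. It fell by 0.74 in preleukemia (limma adjusted p = 0.0116; 0.0738 without preleukemia library 2) and by 1.00 in leukemia (adjusted p = 0.00306), opposite to Cyba and Ncf1 in preleukemia.

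Of 17 transcription factors known to act on oxidase genes 5 rose and 3 fell in preleukemia against mock, with a median of -0.34. Over all tested genes 13.5% were higher and 6.02% lower in that comparison. Spi1 (PU.1), which drives Cybb and the cytosolic subunits in myeloid cells, was 36.1 and 45.3 RPKM in mock, 68.2 and 76.9 RPKM in preleukemia, and 56.5 and 60.5 in leukemia. It rose by 0.83 in preleukemia (limma adjusted p = 0.00869; 0.0872 without preleukemia library 2) and by 0.52 in leukemia (adjusted p = 0.0311; up to 0.170, without leukemia library 2, and above 0.05 in 5 of the 6 fits that leave out 1 library). Gfi1, a repressor needed for neutrophil development, rose by 1.79 in preleukemia (limma adjusted p = 0.00774; 0.0693 without preleukemia library 2) and fell by 1.78 in leukemia against preleukemia (adjusted p = 0.00843; 0.0745 without the same library). Cebpd rose by 1.44 in preleukemia (limma adjusted p = 0.00795; 0.0534 without preleukemia library 2), and Jun, an AP-1 subunit, fell by 2.10 (adjusted p = 0.00435). Leukemia had 2 higher and 2 lower than mock, a share near that of all tested genes (12.1% higher and 13.5% lower). Hoxa9, a homeobox factor of progenitors, was among those lower than mock. It was 7.44 and 5.82 RPKM in mock, 2.09 and 3.12 RPKM in preleukemia and listed at 0 in both leukemia libraries (limma adjusted p = 0.000326). Against preleukemia 2 rose and 4 fell in leukemia, where 5.27% of all tested genes were higher and 13% lower.

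**Figure D5:**
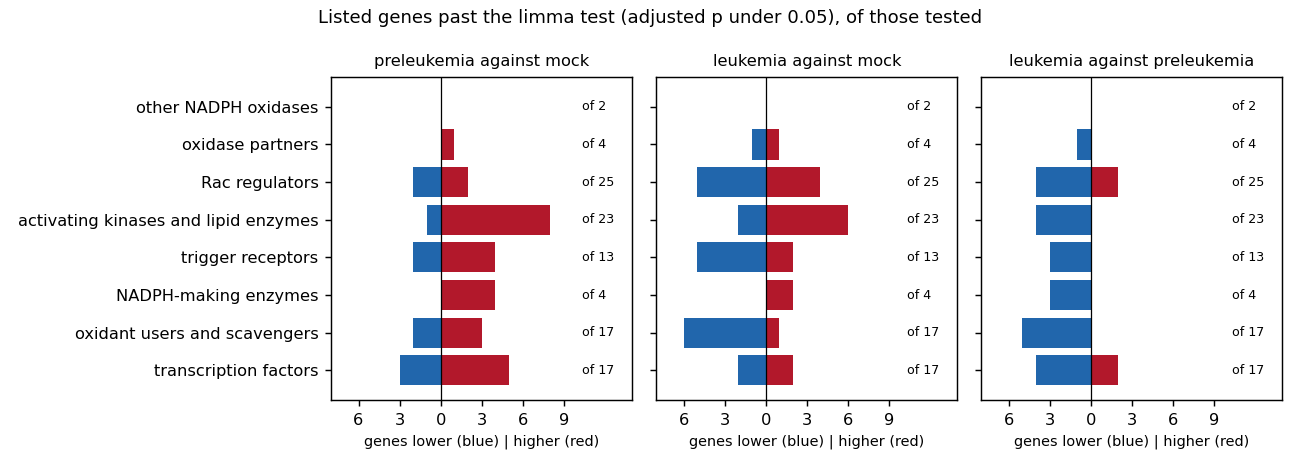
Number of genes of each list past the limma test, lower to the left in blue and higher to the right in red, of the number tested at the right of each panel. In preleukemia against mock 8 of 23 activating kinases and lipid enzymes and 4 of 4 NADPH-making enzymes rose, where 13.5% of all tested genes were higher. In leukemia against preleukemia the oxidase partners, kinases, receptors, NADPH-making enzymes and oxidant users have blue bars alone (1 of 4, 4 of 23, 3 of 13, 3 of 4 and 5 of 17), where 13% of all tested genes were lower.

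Genes whose pattern was most like that of Cyba, Ncf1 or Rac2 were found by the root mean square difference over the 6 libraries, after each gene's log2(RPKM + 1) values were centred on their mean. Nearest to Cyba were Naprt1 (0.0729), an enzyme of NAD synthesis, Pde8a (0.0730), a phosphodiesterase, and Acpp (0.115), an acid phosphatase. Acpp lay at 0.0506 and 0.0677 RPKM in mock and 2.10 and 3.08 in preleukemia, and Naprt1 at 1.08 and 1.41 in mock. The likeness of such low genes holds on the log2(RPKM + 1) scale, which understates their changes. Nearest to Ncf1 were Lyst (0.0996), the lysosomal trafficking gene mutated in the beige mouse, Glt1d1 (0.122) and Prkcb (0.125). Nearest to Rac2 were Ostf1 (0.0255), Trabd (0.0347) and Klhl36 (0.0371). Among the members themselves Ncf4 and Rac2 were closest (0.150), and Cybb and Rac1 farthest apart (1.20). Points of such a comparison share the 6 libraries, so they carry no test.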

How the data were processed

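RNA sequencing values of 6 libraries were used in 1 deposited table with 1 value per gene and library. The authors made the RPKM values. CASAVA 1.8.2 and the build GRCm38 appear, without a role, in the submitters' processing notes; aligner, counter and annotation were not given in the sources used here. No header names the unit, which was worked out: with each value times its gene's exon length in GENCODE M21 (35428 rows matched), 64.0% to 65.8% of values under 20 reads lay within 0.02 of a whole number of reads, where chance gives 4%. Whole reads were not recovered for all genes, so no count test was the main result.

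Genes with at least 1 RPKM in 2 of 6 libraries (10958) were tested on log2(RPKM + 1) with limma 3.58.1 in R 4.3.3, 1 mean per group over all 6 libraries, a spread that follows the mean level (3 residual and 3.70 prior degrees of freedom), two-sided, with Benjamini-Hochberg adjustment at 0.05 over all genes of a comparison. Fold changes on this scale understate changes of low genes. The test was checked on simulated reads with the same spread set for every gene. That check does not cover genes whose libraries differ as much as those of Cybb. The 6 genes and the gene lists were chosen with earlier results of these data known. The rule named the 6 genes, up to 4 listed genes with the smallest p in a comparison, and the 3 genes most like each called member (given for Cyba, Ncf1 and Rac2). Rac3, BC017643, Clcn3, Nox1, Nox3, Nox4, Daglb, Gtf2ird2, the markers and listed genes named only for a call lost without a library were named outside it, after values were seen. Of the alternatives, 18 were run: pseudocounts of 0.1 and 0.5, filters, scalings, spread estimates, voom on implied reads, the replicate number as a block, the 4 libraries compared, and each library left out. Some listed genes are not reported here and were left out of the lists after the results were known.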

Additional observations from a re-analysis of the deposited data

How the results depend on the processing

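The number of the 6 genes that rose in preleukemia against mock was 4, and 2 to 4 when 1 library was left out. In leukemia against mock it was 1, and 0 to 1. The number that fell in leukemia against preleukemia was 4, and 1 to 4 when 1 library was left out, or 1 with no filter on low values, where 19788 genes were tested. Under the other 11 alternatives these counts stayed within 1.5 times. The directions that turned were of differences between leukemia and mock that had not passed: Cybb (-0.42 without mock library 1, -0.81 without leukemia library 2; -0.81 to 0.918 over the 6 fits that leave out 1 library), Rac1 (-0.0689 without mock library 2, -0.0047 without leukemia library 1; -0.0689 to 0.0974) and Rac2 (-0.0743 without mock library 2, -0.0894 without leukemia library 2; -0.0894 to 0.123). The cause was not tested. Cybb did not pass in preleukemia with no filter (adjusted p = 0.112) or with array weights (adjusted p = 0.0989), nor in leukemia against preleukemia with no filter (adjusted p = 0.124).

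With the replicate block, 5 of the 6 genes rose in preleukemia (Ncf4 added), 1 rose in leukemia and 4 fell in leukemia against preleukemia. The labels say no more than the number, and the differences between libraries 2 and 1 correlated across genes by 0.12 (mock and preleukemia), 0.01 (mock and leukemia) and 0.18 (preleukemia and leukemia), so the samples were not taken as paired. Over all genes the count of calls ran from 463 (without preleukemia library 2) to 3766 (without mock library 1) around 2140 in preleukemia against mock. It ran from 980 (without leukemia library 2) to 3697 (without mock library 1) around 2809 in leukemia against mock. In leukemia against preleukemia it ran from 404 (without preleukemia library 2) to 3786 (array weights) around 2006. Of 972 counts for the lists under the alternatives, 804 stayed within 1.5 times. Depth did not limit the 6 genes, which had at least 429 implied reads in each library; the 2 libraries a group limit the precision.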
